A study of Mus musculus with 19 samples.

Results

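The forkhead box O (FoxO) factors and the muscle ubiquitin ligases tied to atrophy were described here as 10 genes, namely the FoxO factors Foxo1, Foxo3 and Foxo4, the MuRF ligases Trim63, Trim54 and Trim55, and the F-box genes Fbxo32, Fbxo30, Fbxo21 and Fbxo40. They were taken by name, all 10 were found among 35598 annotated genes, and all 10 passed the filter on low counts. The data were messenger RNA profiles of primary myoblasts from mouse hind limb, the dividing precursors that fuse into multinucleate myotubes. Myoblasts were collected at 24 h in growth medium, differentiated myotubes at 48 h and fused myotubes at 72 h. The wild-type (WT) label covered 3, 3 and 4 libraries at these stages and the Glud1KO label, given by the design as Glud1-deficient and written here as KO-labelled, covered 3, 2 and 4. Glud1 encodes glutamate dehydrogenase, the mitochondrial enzyme that converts glutamate to alpha-ketoglutarate. How the gene was disrupted is not given in the sources used here, no agent other than the culture media is named, and the labels number biological replicates without saying whether they are separate animals. The p-values therefore measure the spread between these libraries.

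FoxO factors are transcription factors held in the cytoplasm when AKT phosphorylates them downstream of insulin and insulin-like growth factors. When that signal is weak they enter the nucleus and, in skeletal muscle, turn on genes of protein breakdown by the proteasome and by autophagy. Trim63 encodes MuRF1 and Fbxo32 encodes atrogin-1, the pair of ubiquitin ligases best known from wasting muscle. Trim55 and Trim54 encode the related RING ligases MuRF2 and MuRF3, which bind the sarcomere and microtubules. Fbxo32, Fbxo30 (MUSA1), Fbxo21 (SMART) and Fbxo40 encode F-box proteins, the parts of SCF ligases that choose the substrate. Cultured myotubes differentiate without load or nerve, so these genes were measured here during muscle formation and not in a wasting muscle.

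Libraries held 16168131 to 30742634 estimated counts. KO-labelled myoblast libraries were all deeper (26317419 to 30742634) than WT ones (19984984 to 26169264), and KO-labelled differentiated libraries were all shallower (19875856 and 20878532) than WT ones (21586966 to 29896572). Glud1 RNA did not separate the labels. In CPM, the counts scaled to a common library size, it was 189 in WT and 187 in KO-labelled myoblasts, 106 and 99.8 in differentiated myotubes, and 135 and 133 in fused myotubes, with overlapping libraries at each stage and log2 differences of -0.02, -0.09 and -0.02 that did not pass the test. Skeletal muscle lineage markers were present in every group. All 4 adipocyte markers were at or under 3 counts per library in every group, and the 7 fibroblast markers summed to at most 8.46 CPM in any library.

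Promoter windows, running from 250 bases before to 50 after the start site, were present in the RefSeq table of build GRCm38.p6 for 7 of the 10 genes, all but Foxo4, Fbxo32 and Trim55. Stretches of 3 of them are shown because Trim63, Fbxo40 and Trim54 each rose at least 6.88-fold in RNA from myoblasts to differentiated myotubes and their windows held the letters CAGCTG, an E-box of the kind that myogenic factors bind. Capitals mark CAGCTG and, in Trim63, TGTTTAC, which is the reverse complement of the FoxO recognition sequence GTAAACA. Each stretch reads 5′ to 3′ on the strand of the gene.
Trim63, chr4:134314911-134315068, plus strand: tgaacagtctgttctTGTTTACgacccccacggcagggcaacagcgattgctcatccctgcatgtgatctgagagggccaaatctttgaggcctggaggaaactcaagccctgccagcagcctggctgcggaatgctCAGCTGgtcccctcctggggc
Fbxo40, chr16:36990500-36990563, minus strand: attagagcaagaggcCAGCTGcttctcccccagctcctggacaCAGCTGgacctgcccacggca
Trim54, chr5:31116484-31116519, plus strand: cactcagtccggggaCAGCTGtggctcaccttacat
The FoxO sequence, searched on both strands, was found in 1 of the 7 genes with a window, Trim63, where its first base lies 194 bases before the start site, and in 4.05% of the 27025 genes of the table (3.65% of its 32851 windows). CAGCTG was in 3 of the 7 and in 18.3% of all genes (16.3% of windows). The second window of Fbxo40, not shown, held it as well. The related letters CAAAACA, an insulin response sequence, were in 0 of the 7 and in 7.20% of all genes (6.28% of windows). The looser E-box CANNTG, which includes CAGCTG, was in 4 of the 7, Foxo1 and the 3 shown, and in 75.0% of all genes (72.3% of windows). A match is a run of letters and no measure of binding, and binding was not measured.

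In WT cells, 9 of the 10 genes differed between myoblasts and differentiated myotubes, 8 of them higher and Fbxo21 lower, at an adjusted p under 0.05 in edgeR's quasi-likelihood test. Over all genes tested, 85% differed in that comparison (42.4% higher, 42.6% lower), so the share among the 10 stands near the background. Their median log2 change was 1.17 against 0.02 over all genes. From differentiated to fused myotubes all 10 differed (75.1% of all genes, 37.4% higher and 37.7% lower), 9 higher and Trim55 lower, and from myoblasts to fused myotubes all 10 differed (85.5%, 42.2% higher and 43.4% lower), 9 higher and Fbxo21 lower. The last of these comparisons shares its libraries with the others. With no scaling beyond library size, the median change of all genes moved from 0.02 to -0.23 between myoblasts and differentiated myotubes and from -0.01 to -0.33 between myoblasts and fused myotubes. In these bulk libraries, fewer cells that express a gene and less RNA per cell cannot be told apart.

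Foxo3 (GRCm38 chr10:42181841-42276755, minus strand), the factor most often named as the driver of atrophy genes in muscle, rose at each step. It was at 74.0, 70.1 and 72.0 CPM in WT myoblasts, at 122, 128 and 136 in differentiated myotubes and at 169, 161, 164 and 181 in fused myotubes. No library of a later stage overlapped one of an earlier stage, as was the case for 85.1%, 71.6% and 83.4% of all genes in the first step, the second step and the whole course. The log2 changes were 0.84 ± 0.044 (SE) and 0.39 ± 0.040. Foxo4 (chrX:101254528-101260873, plus strand) followed a similar course, from 29.5 to 31.3 CPM in myoblasts through 50.6 to 53.1 in differentiated to 66.5 to 71.4 in fused myotubes, with log2 changes of 0.78 ± 0.045 and 0.42 ± 0.040.

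Foxo1 (chr3:52268336-52353221, plus strand) rose later. It was at 21.1, 21.6 and 21.5 CPM in WT myoblasts and 21.6, 21.4 and 20.3 in differentiated myotubes, which overlap, and at 29.4, 29.7, 31.8 and 32.8 in fused myotubes, above both. The first change was -0.02 ± 0.059 with an adjusted p of 0.709 in edgeR's test and a 95% interval of -0.14 to 0.09. With library size alone as the scaling it was -0.28 with an adjusted p of 0.000105, beside the shift of all genes to -0.23 under that scaling. The second change was 0.56 ± 0.055, a 1.47-fold rise.

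Trim63 (chr4:134315120-134329629, plus strand) had the largest rise from myoblasts to differentiated myotubes among the 10 genes. It was at 2.25, 2.59 and 2.34 CPM in WT myoblasts, where 60 to 70.1 estimated counts of its main transcript lie behind each value, and at 75.6, 78.3 and 80.8 in differentiated myotubes. That was a 32.8-fold rise (log2 5.04 ± 0.064). It then rose by 1.12-fold, to 85.1, 86.7, 88.1 and 89.5 CPM in fused myotubes, a step that keeps the libraries of the groups apart but is small beside the first.

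Trim54 (chr5:31116712-31137630, plus strand) and Trim55 (chr3:19644474-19692421, plus strand) parted after 48 h. Trim54 went from 21.6, 19.3 and 22.4 CPM in WT myoblasts to 147, 139 and 151 in differentiated myotubes, a 6.88-fold rise, and on to 192, 189, 200 and 185 in fused myotubes. Trim55 went from 40.5, 42.4 and 39.1 to 266, 264 and 267 CPM, a 6.54-fold rise, and then down to 217, 213, 207 and 209. Between differentiated and fused myotubes the log2 change was 0.39 ± 0.039 for Trim54 and -0.33 ± 0.036 for Trim55, and in neither gene did the groups overlap. The difference between the 2 genes was not itself tested.

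Fbxo32 (chr15:58175879-58214932, minus strand) was at 19.1, 19.6 and 19.1 CPM in WT myoblasts, 55.9, 54.7 and 53.1 in differentiated myotubes and 67.8, 63.3, 63.3 and 70.8 in fused myotubes. Its first rise was 2.83-fold and its second 1.22-fold. Fbxo30 (chr10:11281330-11298052, plus strand) had a narrower range, from 57.4 to 65.4 CPM in myoblasts through 92.0 to 99.5 in differentiated to 105 to 114 in fused myotubes, and its steps were 1.54-fold and 1.14-fold.

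Fbxo40 (chr16:36963460-36990467, minus strand), a muscle-restricted F-box gene whose protein is described to act on the insulin receptor substrate IRS1, rose at both steps. It was at 0.984, 0.692 and 0.836 CPM in WT myoblasts, 10.8, 13.1 and 11.5 in differentiated myotubes and 57.9, 53.4, 55.4 and 61.8 in fused myotubes. The steps were 13.8-fold and 4.87-fold, and the whole course was 67.3-fold (log2 6.07 ± 0.10, against 5.19 for Trim63). With the offset for effective length, which accounts for shifts between its transcripts, the first step was 2.68 and the whole course 5.19, and for Trim63 it was 5.19 as well. Of the 10 genes it had the largest second step.

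Fbxo21 (chr5:117976730-118010201, plus strand) was the member that fell with differentiation. It was at 48.7, 45.7 and 44.9 CPM in WT myoblasts and 17.2, 14.5 and 16.9 in differentiated myotubes, which is 2.86-fold lower. The fused libraries, at 18.9, 19.8, 18.8 and 19.8 CPM, were higher than at 48 h by a log2 change of 0.25 ± 0.066. With an offset for the effective length of its transcripts that change was 0.08, with an adjusted p of 0.727 in edgeR's test.

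**Figure D1:**
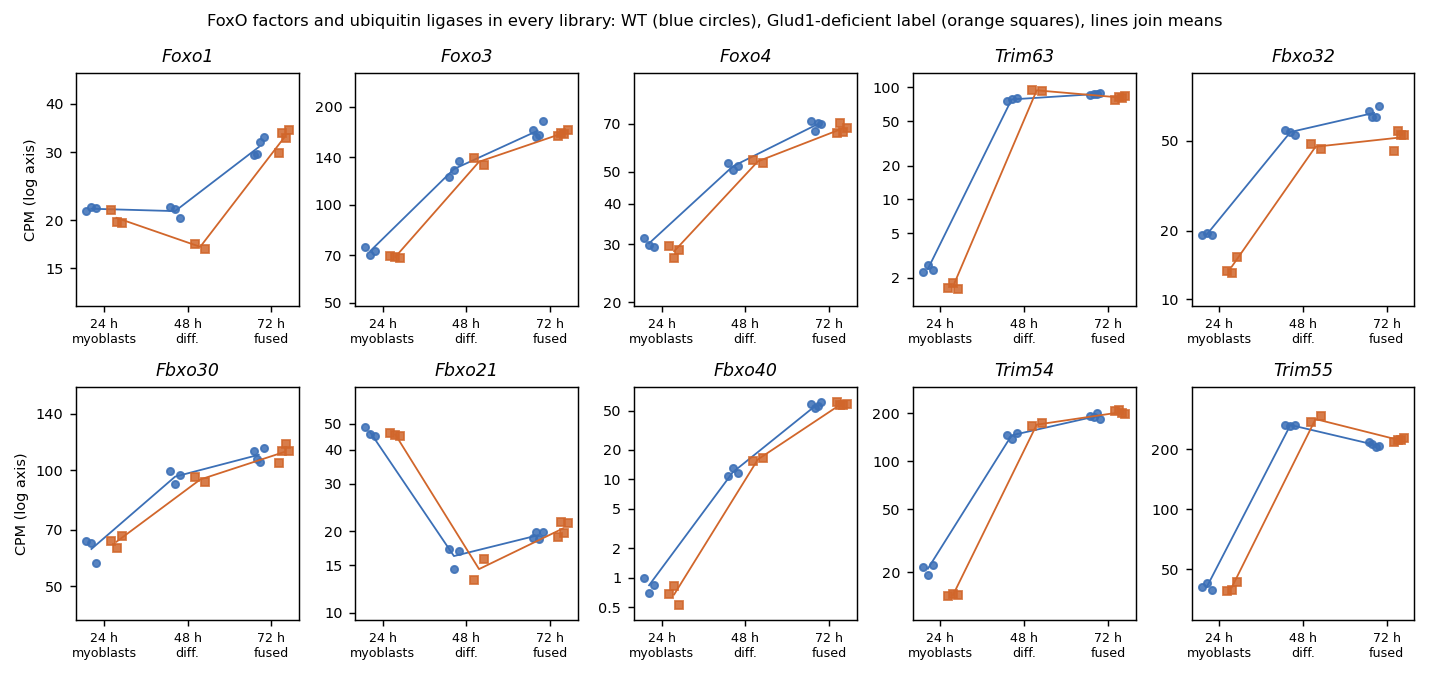
CPM on log axes (each panel with its own range) of the 10 genes in all 19 libraries by stage, with WT as blue circles, KO-labelled as orange squares and lines through the group means. Trim63 steps from about 2 CPM in both labels to 75.6 or more at 48 h, Foxo1 stays near 21 CPM in WT until 72 h, and Fbxo21 is the panel that descends.

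Levels of different genes can be compared per length of transcript, for which the deposited TPM values, abundances scaled for transcript length and depth, were summed per gene, non-coding transcripts included. They rest on the deposited effective lengths, which exceeded the transcript length for 14.4% to 17.2% of transcripts in a library, so orders between genes depend on these lengths. In WT myoblasts the highest of the 10 were Fbxo30 at 40.04 ± 2.94 TPM (SD, n = 3) and Trim55 at 35.46 ± 1.71, whose libraries overlapped. Trim54 at 24.07 and Fbxo21 at 20.60 came next and overlapped as well, followed without overlap by Foxo3 at 15.28, Foxo4 at 13.53, Fbxo32 at 4.792, Foxo1 at 3.923, Trim63 at 2.182 and Fbxo40 at 0.7634. In WT fused myotubes no neighbours in the order overlapped: Trim54 was at 181.9 ± 7.66 TPM (SD, n = 4), Trim55 at 129.5, Trim63 at 66.18, Fbxo30 at 59.86, Foxo3 at 29.70, Foxo4 at 25.21, Fbxo40 at 20.78, Fbxo32 at 13.65, Fbxo21 at 7.251 and Foxo1 at 4.711. Foxo1 was thus the lowest of the 10 in fused myotubes, while Trim63 had moved from the ninth place to the third.

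Of the summed TPM of Foxo1, Foxo3 and Foxo4, in which Foxo6 is not included, Foxo1 held 12.0% ± 0.357 (SD, n = 3) in WT myoblasts and 7.91% ± 0.329 (n = 4) in fused myotubes. Foxo3 held 46.7% ± 0.859 and 49.8% ± 0.974, and Foxo4 41.3% ± 0.893 and 42.3% ± 1.02. The MuRF family as a whole went from 61.72 ± 2.36 TPM in WT myoblasts to 403.9 ± 6.43 in differentiated and 377.6 ± 11.5 in fused myotubes. Trim63 made up 3.54%, 15.9% and 17.5% of it. Trim55 had the highest share at 24 h (57.5%) and 48 h (47.2%), and Trim54 at 72 h (48.2% against 34.3% for Trim55). Part of the Trim55 share, however, came from a processed transcript of 506 bases, which held 29.8%, 20.7% and 13.3% of the gene's TPM at the 3 stages. Over protein-coding transcripts alone, Trim55 and Trim54 were at 24.8 ± 1.77 and 24.1 ± 1.56 TPM (SD, n = 3) at 24 h and at 151 ± 0.569 and 149 ± 6.14 at 48 h, differences smaller than the SD of Trim54, and at 112 ± 5.60 and 182 ± 7.66 (n = 4) at 72 h. Of the 4 F-box genes, Fbxo30 led at each stage in WT with 60.5%, 69.9% and 58.9%. Fbxo40 went from 1.16% to 5.03% and 20.5%, and Fbxo21 from 31.1% to 9.55% ± 3.46 (SD, n = 3) and 7.13%. A processed transcript of 387 bases held 12.7%, 21.2% and 14.5% of the Fbxo21 TPM. Over protein-coding transcripts alone, Fbxo21 made up 28.5%, 7.1% and 6.47% of the F-box sum. The Fbxo40 coding transcript held 28.5%, 80.7% and 67.7% of that gene's TPM, and most of the rest was a processed transcript of 383 bases. Over protein-coding transcripts alone, Fbxo40 made up 0.297%, 4.21% and 14.9% of the F-box sum, and at 72 h its 14.0 ± 1.07 TPM (SD, n = 4) lay within the SD of the 13.7 ± 0.922 of Fbxo32.

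**Figure D2:**
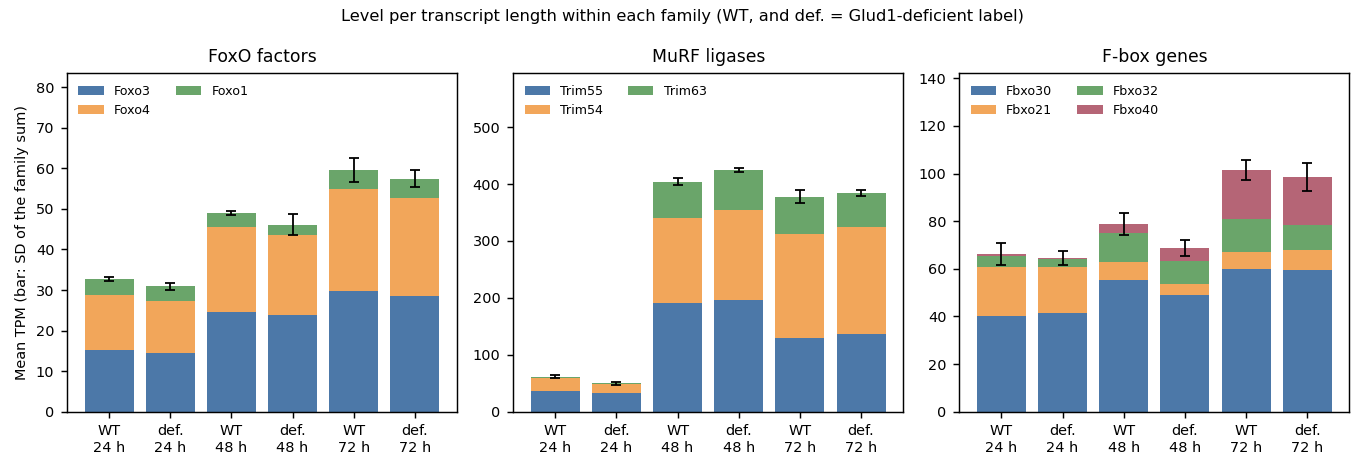
Mean TPM of the FoxO factors, the MuRF ligases and the F-box genes in the 6 groups, stacked by gene on linear axes from 0, with bars for the SD of the family sum over libraries. The MuRF sum lies at 61.72 TPM in WT myoblasts and at 403.9 at 48 h, and Fbxo40 becomes a visible part of the F-box sum at 72 h.

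A single annotated transcript carried Foxo1 and Fbxo32. Foxo3, Foxo4, Trim63 and Trim54 each had 1 transcript with a mean of at least 96.6% of the counts in every group. Fbxo30 was split between a transcript of 2492 bases and one of 5060 bases, which held 50.2% and 49.8% of its counts in WT myoblasts and 53.7% and 46.3% in WT fused myotubes. For Fbxo40, the share of the 5137-base coding transcript was 72.5% ± 13.0 (SD, n = 3) in WT myoblasts, where it rests on 10.3 to 21.9 estimated counts, and 95.7% ± 2.03 (n = 4) in WT fused myotubes. The shares of the Fbxo21 transcripts varied widely between libraries of a group, for its main one from 56.2% to 90.3% in WT differentiated myotubes. Annotated genes that overlap Foxo1, Fbxo32 and Trim54 had at most 0.502 CPM, and BC002189, which overlaps Trim55 on the same strand, had at most 3.74. Whether counting used strand is not stated.

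Between the genotype labels, 3 of the 10 genes differed in myoblasts, all lower in KO-labelled libraries (11.6% of all genes were called, 4.86% as higher and 6.69% as lower). The 3 were Trim54, Trim63 and Fbxo32. The values of the groups did not overlap in 4 of the 10 genes, these 3 and Foxo3, against 33% of all genes tested. An exact two-sided permutation test of 3 libraries against 3 cannot go below 0.1, so single genes rest on the fit over all genes.

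Trim54 was at 14.1, 14.6 and 14.5 CPM in KO-labelled myoblasts against 19.3 to 22.4 in WT. The log2 fold change was -0.56 ± 0.060 with an adjusted p of 2.21e-07 in edgeR's test. Fbxo32 was at 13.3, 13.1 and 15.4 CPM against 19.1 to 19.6, with -0.47 ± 0.074 and an adjusted p of 7.65e-05. Trim63 was at 1.63, 1.80 and 1.57 CPM against 2.25 to 2.59, with -0.51 ± 0.12 and an adjusted p of 0.0129. That call was lost without WT library 2 (adjusted p 0.0666), without KO-labelled library 1 (0.0516) and without KO-labelled library 3 (0.0603).

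The other 7 genes did not pass the test in myoblasts. The 95% interval of the log2 difference was -0.19 to 0.03 for Foxo1, -0.15 to 0.03 for Foxo3, -0.17 to 0.01 for Foxo4, -0.03 to 0.16 for Fbxo30, -0.13 to 0.08 for Fbxo21 and -0.09 to 0.09 for Trim55. Differences as large as that of Trim54 lie outside these 6 intervals. For Fbxo40, with under 1 CPM in either label, the interval of -0.79 to 0.15 is too wide to say so. Beside these results, the 9 muscle lineage markers summed to 1960 to 2030 CPM in KO-labelled and 2400 to 2660 in WT myoblasts. Among them Pax7, the factor of undifferentiated muscle precursors, was level between the labels, at 103 ± 1.92 against 102 ± 3.19 CPM (SD). Acta1 was lower in KO-labelled myoblasts, at 255 against 437 CPM, as were Myh3 (117 against 221) and Myog (73.5 against 114). The 7 fibroblast markers summed to 4.55 to 5.69 against 7.74 to 8.46 CPM, with Dcn, Lum and Dpt at or under 3 counts in both labels, and the 4 smooth muscle and pericyte markers to 32.0 to 34.5 against 38.2 to 42.2. The part of these marker differences, or of depth, in the ligase results was not tested.

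In differentiated myotubes 5 of the 10 genes differed (25.2% of all genes, 11% higher and 14.2% lower), 3 higher and 2 lower in KO-labelled libraries. Trim63 and Trim54, lower at 24 h, were higher here. Trim63 was at 95.8 and 92.9 CPM against 75.6, 78.3 and 80.8 in WT (0.27 ± 0.044, adjusted p 3.89e-05 in edgeR's test). Trim54 was at 166 and 174 CPM against 147, 139 and 151 (0.23 ± 0.047, adjusted p 0.000629 in edgeR's test). Fbxo40 was at 15.3 and 16.6 CPM against 10.8, 13.1 and 11.5, which is 1.36-fold higher. Its adjusted p was 0.000554 in edgeR's test and 0.0554 with the offset for effective length. The third MuRF gene, Trim55, was at 275 and 294 CPM against 264 to 267 and did not pass the test (0.10, adjusted p 0.0912 in edgeR's test), but passed with DESeq2 (0.0226) and with the length offset (0.03).

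The genes lower in KO-labelled differentiated myotubes were Foxo1 and Fbxo32. Foxo1 was at 17.3 and 16.8 CPM against 21.6, 21.4 and 20.3 in WT, a log2 fold change of -0.30 ± 0.072 with an adjusted p of 0.00238 in edgeR's test. Fbxo32 was at 48.1 and 45.9 CPM against 55.9, 54.7 and 53.1, or -0.22 ± 0.069 with an adjusted p of 0.0218. The Fbxo32 call was lost with the length offset (0.0739), without WT library 1 (0.067) and without either KO-labelled library (0.0585 and 0.177). Foxo3 and Foxo4 did not pass the test, with intervals of -0.02 to 0.17 and -0.04 to 0.15, and neither did Fbxo30 (-0.13 to 0.08) or Fbxo21 (-0.32 to 0.01). The Fbxo21 estimate of -0.16 was -0.55 with the length offset (adjusted p 0.144 in edgeR's test), and without WT library 2 it was -0.23 and passed (0.0498). Groups did not overlap in 7 of the 10 genes, the 5 called ones, Foxo4 and Trim55, against 46.5% of all genes. With 2 KO-labelled libraries, the exact permutation test in the form used here, which doubles the one-sided p, cannot go below 0.2. Of the marker lists, that of 6 leukocyte genes summed to 24.3 to 28.0 CPM in KO-labelled and 15.6 to 18.5 in WT libraries. Only Itgam of its genes reached 1 CPM (25.3 ± 2.57 against 15.8 ± 1.35), and the defining genes Adgre1, Csf1r and Cd3e were at or under 3 counts in both labels. The 9 muscle lineage markers summed to 38900 to 42900 CPM in KO-labelled and 39700 to 44400 in WT libraries, which overlap. Of these markers, Pax7 was at 5.63 ± 0.781 CPM (SD, n = 2) in KO-labelled and 10.6 ± 0.579 (n = 3) in WT libraries. Others lay closer between the labels, Myog at 2460 ± 183 against 2480 ± 108 CPM, Myh3 at 16000 against 16100 and Acta1 at 13100 against 12200. Their part in the results at 48 h was not tested.

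In fused myotubes 2 of the 10 genes differed (13% of all genes, 6.32% higher and 6.72% lower), both lower in KO-labelled libraries. Fbxo32 was at 45.0, 55.1, 53.1 and 53.1 CPM against 67.8, 63.3, 63.3 and 70.8 in WT. The groups did not overlap in 3 of the 10 genes, Fbxo32, Trim63 and Trim55 (15.9% of all genes). For Fbxo32 the log2 fold change was -0.36 ± 0.053 with an adjusted p of 2.26e-05 in edgeR's test, and the exact permutation p of 0.0286 is the smallest that 4 against 4 allows. Trim63 was at 77.9, 82.0, 81.2 and 84.3 CPM against 85.1, 86.7, 88.1 and 89.5, a log2 fold change of -0.10 ± 0.035. Its adjusted p of 0.05 in edgeR's test lay just under the threshold, and 3 of 16 alternatives kept the call. The other 8 genes did not pass the test. Among them Trim55, whose groups did not overlap, was higher by 0.08 ± 0.034 (adjusted p 0.148 in edgeR's test, exact permutation p 0.0286). Their estimates ran from -0.04 for Foxo4 to 0.09 for Trim54, and Foxo1, which differed at 48 h, had an interval of -0.02 to 0.17.

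Fbxo32 was therefore lower in KO-labelled cells at each of the 3 stages, by 27.8%, 13.9% and 22.3%, and no other gene of the 10 was called in 1 direction at all 3. Of all genes, 0.965% were called in 1 direction at all 3 stages and 0.76% as lower. The call at 48 h was kept in 9 of 13 alternatives. Its effect was not found to differ between stages (adjusted p of 0.0812, 0.278 and 0.542 in edgeR's tests of the differences), which does not show that it was equal. The first of these passed in 4 of the alternatives.

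**Figure D3:**
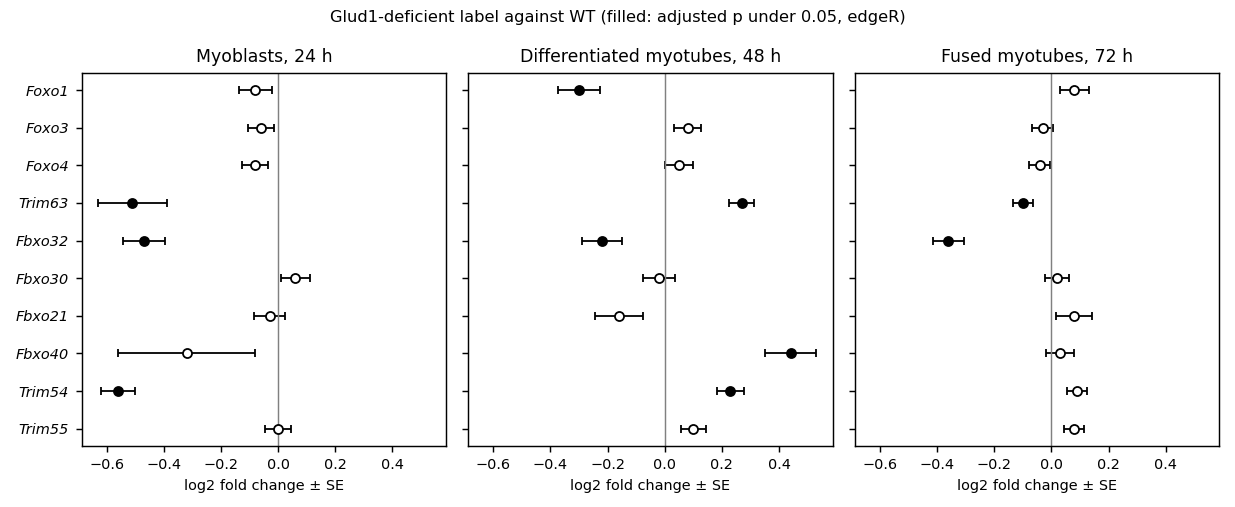
Log2 fold change (± SE) of KO-labelled over WT libraries for the 10 genes at 24 h, 48 h and 72 h, with filled points for an adjusted p under 0.05 in edgeR's test. Fbxo32 lies to the left of 0 in each panel, whereas Trim63 and Trim54 lie to the left at 24 h and to the right at 48 h.

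Whether an effect of the label changed between stages was tested as a difference of differences. From myoblasts to differentiated myotubes it changed for 3 of the 10 genes (19.1% of all genes, 7.78% upward and 11.3% downward), each toward higher values in KO-labelled cells. Trim54 changed by 0.78 ± 0.076 (adjusted p 2.44e-08 in edgeR's test), Trim63 by 0.78 ± 0.13 (7.1e-05) and Fbxo40 by 0.76 ± 0.26 (0.0378). The Fbxo40 change passed in 11 of 19 alternatives. Trim55 (0.10) and Foxo1 (-0.22) did not pass here. With the length offset Trim55 did (0.30, adjusted p 0.00989 in edgeR's test), and with library size alone Foxo1 did (-0.28, 0.0303). From differentiated to fused myotubes it changed for 3 genes as well (14.8% of all genes, 8.27% upward and 6.53% downward), upward for Foxo1 by 0.38 ± 0.087 and downward for Trim63 by 0.37 and for Fbxo40 by 0.41. For Fbxo21 this change of 0.24 did not pass (adjusted p 0.132 in edgeR's test) but did without WT differentiated library 2 (0.0409) and without KO-labelled differentiated library 2 (0.0472). From myoblasts to fused myotubes Trim54 alone of the 10 changed (10.3% of all genes, 5.75% upward and 4.55% downward), by 0.65 ± 0.070 with an adjusted p of 4.91e-07 in edgeR's test. These 3 comparisons share libraries. The direction of the calls over all genes depended on the scaling. Upward calls made up 40.7%, 55.9% and 55.8% of them in the 3 comparisons, against 26.3%, 75.0% and 57.1% with library size alone and 50.8%, 50.9% and 65.9% with DESeq2 size factors. With the length offset the last was 66.8%.

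The other genes of the pathway were read from 4 lists. The list of FoxO targets and atrophy genes held 35 genes and all were tested. In KO-labelled myoblasts 0 were higher and 8 lower, so 22.9% were called against 11.6% of all genes, and the median log2 fold change was -0.11 against 0.01 over all genes. The largest falls with at least 1 CPM were Lpl, which encodes lipoprotein lipase (1.38 against 2.51 CPM, -0.86 ± 0.17), Mstn, the growth inhibitor myostatin (3.34 against 5.75 CPM, -0.78 ± 0.099), and Sqstm1, the autophagy receptor p62 (430.0 against 537 CPM, -0.32 ± 0.041). In differentiated myotubes 4 were higher and 12 lower, or 45.7% against 25.2% of all genes. Of the 4 that rose, the 3 with the largest change were Atg12, an autophagy gene (0.29), Ctsl, a lysosomal protease gene (0.22), and Bnip3l, a mitophagy receptor gene (0.17). The Bnip3l call was lost with library size alone as the scaling, with the length offset and without KO-labelled library 2, and that of Ctsl without KO-labelled library 2. Irs2, an insulin receptor substrate (-0.64), Sesn3, a stress-induced sestrin (-0.61), and the death-promoting Bcl2l11 (-0.47) fell, as did the autophagy genes Gabarapl1 (-0.33) and Sqstm1 (-0.18). The Bcl2l11 call was lost with the length offset and without KO-labelled library 1. In fused myotubes 7 were higher and 4 lower, or 31.4% against 13% of all genes. Cd36, a fatty acid transporter, was at 150.0 against 114 CPM (0.40 ± 0.047), and Pdk4, the kinase that shuts down pyruvate dehydrogenase and a common readout of FoxO activity, at 162 against 127 CPM (0.35 ± 0.036). Fst, the myostatin antagonist follistatin, was the next rise (0.22 ± 0.034). The falls were smaller than these 3 rises, the largest being Sqstm1 (252 against 282 CPM, -0.16 ± 0.037), Nfe2l2, a factor of the oxidative stress response (50.5 against 56.3 CPM, -0.16 ± 0.045), and Bcl6, a transcriptional repressor (142 against 157 CPM, -0.14 ± 0.038). The Nfe2l2 and Bcl6 calls were lost with the length offset, and that of Nfe2l2 also without WT library 1, WT library 4 or KO-labelled library 4. The counts of called genes in this list ran from 3 to 13, 10 to 18 and 4 to 12 at the 3 stages over the alternatives.

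Foxo6, the other FoxO gene of mouse, was part of that list. Its CPM rose 42.8-fold over the WT course, from 0.878 ± 0.203 (SD, n = 3) at 24 h to 38.6 ± 2.28 (n = 4) at 72 h. In fused myotubes it was 44.2 ± 2.15 CPM (n = 4) in KO-labelled libraries, which passed the test (0.20 ± 0.050, adjusted p 0.00791 in edgeR's test), while Foxo1, Foxo3 and Foxo4 did not. In the same list Cd36 rose from 1.86 to 114 CPM over the WT course, and Ddit4, a stress inhibitor of growth signalling (42.2 to 10.9 CPM), and Irs2 (14.5 to 4.97 CPM) fell.

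Of 36 genes that act on FoxO, through insulin, AKT, stress kinases or acetylation, 1 was higher and 2 lower in KO-labelled myoblasts, 5 and 9 in differentiated and 3 and 6 in fused myotubes. The shares called were 8.33%, 38.9% and 25.0%, against 11.6%, 25.2% and 13% of all genes. The medians of 0.01, -0.04 and 0.00 were within 0.03 of those of all genes. In myoblasts, Igf2, a growth factor made by differentiating muscle cells, was at 353 ± 30.2 CPM (SD, n = 3) in KO-labelled and 692 ± 32.9 in WT libraries, a log2 fold change of -0.97 ± 0.064. Myog, the differentiation factor myogenin, which also drives Trim63 and Fbxo32 in denervated muscle, was at 73.5 against 114 CPM (-0.63 ± 0.071). Sgk1, a kinase that phosphorylates FoxO factors, was higher (81.0 against 61.5 CPM, 0.40 ± 0.057).

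In differentiated myotubes Akt2, an AKT kinase gene of insulin-responsive tissues, was higher (1010 against 802 CPM, 0.33 ± 0.042). The receptor gene Igf1r was lower at 48 h (62.8 against 79.6 CPM, -0.34 ± 0.072) and at 72 h (50.7 against 58.8 CPM, -0.22 ± 0.059). In fused myotubes Pik3r1, the regulatory subunit of PI3-kinase, was higher (33.7 against 25.3 CPM, 0.41 ± 0.055), as was Sgk1 (12.4 against 9.71 CPM, 0.34 ± 0.088). Over the WT course Sgk1 fell from 61.5 to 9.71 CPM, while Prkaa2, the AMPK subunit of mature muscle, rose from 10.3 to 212 CPM and the coactivator gene Ppargc1a from 6.95 to 56.5. The calls of Pik3r1 in fused myotubes and of Sgk1 in myoblasts were lost with the length offset. Without KO-labelled library 2 the Igf1r call at 48 h was lost, and at 72 h it was lost without WT library 4 and without KO-labelled libraries 1 or 2.

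The list of other ubiquitin ligases and ubiquitin genes held 54 genes, of which 2 were higher and 8 lower in KO-labelled myoblasts, 14 and 8 in differentiated myotubes and 2 and 7 in fused myotubes. The shares called were 18.5%, 40.7% and 16.7%, beside the same 11.6%, 25.2% and 13%. In myoblasts Asb2 (-0.71), Klhl31 (-0.43) and Klhl30 (-0.39), muscle genes for adaptors of cullin ligases, were the largest falls, and Mdm2, the ligase of p53, rose (0.23 ± 0.039). In differentiated myotubes Klhl41, a muscle cullin adaptor, was at 640.0 against 458 CPM (0.48 ± 0.052), and Asb15 was higher by 0.53 ± 0.11. Asb4 was lower at 48 h (-0.90 ± 0.20) and at 72 h (-0.47 ± 0.11), and Klhl40, a relative of Klhl41, was higher at 72 h (0.24 ± 0.035). The calls of Asb2 and Asb15 were lost with the length offset and that of Asb4 at 48 h without KO-labelled library 1. Over the WT course Asb11 was at 0 and 2.36 CPM and Asb12 at 0.0223 and 4.74 CPM in myoblasts and fused myotubes.

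Proteins described as substrates or sarcomeric partners of these ligases made a list of 33 genes. In KO-labelled myoblasts 1 was higher and 15 were lower, with a median of -0.22 against 0.01 over all genes. At the 3 stages 48.5%, 45.5% and 27.3% of this list were called, against 11.6%, 25.2% and 13% of all genes. Myh3, the embryonic myosin heavy chain, was at 117 against 221 CPM (-0.92 ± 0.067), and Ldb3, a Z-disc protein gene, at 25.7 against 44.9 CPM (-0.81 ± 0.059). Myh4, a fast adult myosin, was the one that was higher, at 3.22 against 1.42 CPM. In differentiated myotubes 9 were higher and 6 lower. The fast-fibre genes Myl1 (0.47 ± 0.063) and Tnnt3 (0.39 ± 0.055) and the slow-fibre Myl2 (1.00 ± 0.20) rose. Myh7, the slow myosin, fell (-0.52 ± 0.077), as did Vim, the intermediate filament vimentin (-0.43 ± 0.067). In fused myotubes 5 were higher and 4 lower. Myh7 was at 261 against 442 CPM (-0.76 ± 0.060) and Tcap, a titin-binding Z-disc protein gene, at 422 against 331 CPM (0.35 ± 0.040). Vim was on the other side there, at 1280 against 1030 CPM.

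Substrates themselves need no RNA change to be degraded. Myod1, a myogenic factor described as a substrate of atrogin-1, went from 691 ± 28.7 CPM (SD, n = 3) at 24 h in WT cells to 298 ± 11.1 (n = 4) at 72 h. In differentiated myotubes it was lower in KO-labelled libraries, at 657 against 814 CPM (-0.31 ± 0.056, adjusted p 0.000154 in edgeR's test). Eif3f, a translation initiation factor and another described substrate, was at 148 CPM in WT and 156 in KO-labelled myoblasts and did not pass the test at any stage.

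**Figure D4:**
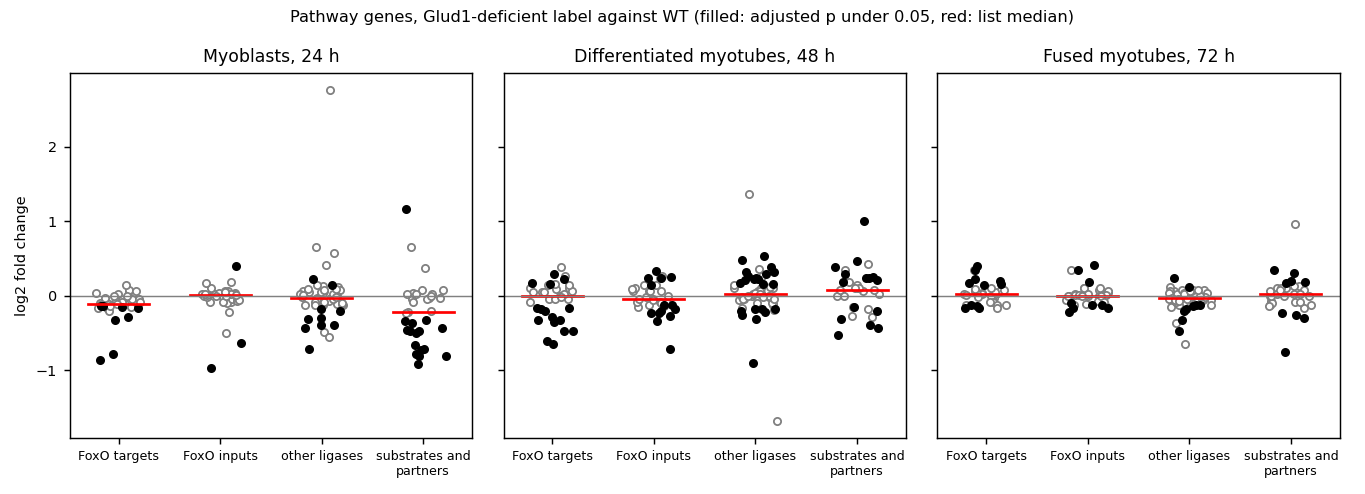
Log2 fold change of KO-labelled over WT libraries for each gene of the 4 pathway lists at the 3 stages, filled where the adjusted p was under 0.05 in edgeR's test, with list medians in red. The substrate and partner list has its median at -0.22 in myoblasts and at 0.08 and 0.02 later.

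Across all 19 libraries, the genes whose log2 CPM followed a member most closely were listed among 12371 genes with at least 1 CPM on average. The libraries form 3 stages, so these Pearson values mostly describe a shared course and carry no test. For Trim63 the closest were Klhl31, Tnnc1 and Tob1 (each 0.999), and 1595 genes reached 0.95. For Fbxo40 they were Rilpl1, Fsd2 and Pip4k2b (each 0.998), and for Foxo3 Rapgef1 (0.997), Ctif (0.996) and Gramd1b (0.996). Foxo1 had fewer close genes. Its nearest were Mgst3 (0.975), Bmpr1b (0.973) and Endod1 (0.972), and 53 genes reached 0.95, against 1719 for Foxo3. For Fbxo32 the nearest were Slc2a6 (0.989) and Fam49a (0.988), with 992 genes at 0.95 or above.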

How the data were processed

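Messenger RNA of 19 libraries was profiled, with RNA from a Qiagen RNeasy micro kit and Illumina TruSeq libraries per the labels' protocols. Per the submitters' processing notes, bcl2fastq 2.20, fastp 0.20.0, kallisto 0.46.1, edgeR 3.36 and build GRCm38.p6 were used. The authors deposited an estimated count and a TPM value for each of 121843 transcripts, per the file headers. A read that fits several transcripts is shared between them, so near-identical genes can exchange counts.

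Transcripts were joined to genes with GENCODE M21, which matched 121018. The other 825 held 0.255% to 0.507% of the counts and were left out. Gene sums were rounded and fitted with edgeR 4.0.16 in R 4.3.3, as 6 groups in 1 quasi-likelihood fit with TMM scaling and filterByExpr, which kept 15123 genes. The 9 comparisons were each adjusted by the Benjamini-Hochberg method, and calls were made under an adjusted p of 0.05. Intervals are at 95%, and counts of 3 or fewer cover counting error only. DESeq2 1.42.0, 7 other settings and leaving out each library were the alternatives. Replicate pairs differed by more than sampling noise (chi-square per degree of freedom 2.07 to 7.06 over 22 pairs), so each library counted once. File names mark both genotypes as KO, with a different prefix for each label, and the labels were followed.

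The members and lists were chosen with earlier results of these data known. Every member was named. Of each list, up to 3 genes with the largest rise and 3 with the largest fall among those called at 1 CPM or more in the higher group were eligible at each stage, and up to 2 and 2 for the WT course. Foxo6 in KO-labelled fused myotubes, Gabarapl1 and Sqstm1 in differentiated myotubes, Myod1 and Eif3f were named outside this rule, after their values were seen. So were Pax7, Itgam and, as muscle lineage markers, Acta1, Myh3 and Myog. 1 gene that this rule would name is not reported here.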

Additional observations from a re-analysis of the deposited data

Results flagged for a closer look

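The effect of the KO label differed between stages, by edgeR's test of the difference itself, for 4 of the 10 genes. Of all genes, 19.1%, 14.8% and 10.3% differed in the 3 comparisons of stages below, in that order. Between myoblasts and differentiated myotubes the log2 effect moved by 0.78 for Trim63, from -0.51 to 0.27, by 0.78 for Trim54, from -0.56 to 0.23, and by 0.76 for Fbxo40, from -0.32 to 0.44. Between differentiated and fused myotubes it moved by 0.38 for Foxo1, from -0.30 to 0.08, by -0.37 for Trim63, from 0.27 to -0.10, and by -0.41 for Fbxo40, from 0.44 to 0.03. Between myoblasts and fused myotubes it moved by 0.65 for Trim54, from -0.56 to 0.09. The Fbxo40 value of 0.76 rests on under 1 CPM in myoblasts. Without KO-labelled differentiated library 2, both Fbxo40 differences lost their call, at adjusted p of 0.0896 and 0.0803 in edgeR's test. With the length offset both were lost as well (0.27 and 0.159), and the first was lost without WT myoblast libraries 1 or 3, WT differentiated libraries 1 or 3, or KO-labelled myoblast libraries 1 or 3. In fused myotubes, the one stage with 4 libraries a label, the gap of the highest or lowest library to its neighbour, divided by the range of the 4, was below Dixon's 95% critical value for each of the 10 genes in either label. It was largest, at 0.804, for Fbxo32 in KO-labelled libraries, where library 1 lay 8.10 CPM below its neighbour within a range of 10.1 CPM. Without that library the log2 difference between the labels was -0.31, which kept its call in edgeR's test, against -0.36 with it. The groups at 24 h and 48 h, of 3 or 2 libraries, were not checked.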

How the results depend on the processing

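The alternatives were other scalings (DESeq2 size factors, library size alone), other filters, DESeq2's Wald test, a fit of the compared libraries alone, an offset for effective length, the replicate number as a block, and leaving out each library. Over the member values, 692 of those from the first 8 settings kept direction and side of the threshold, 11 lost and 9 gained a call and 8 changed sign. Over the leave-one-out fits these counts were 735, 21, 4 and 10. In fused myotubes the count of members called between the labels was 2, and 1 with DESeq2 size factors, library size alone, no filter, the Wald test, the compared libraries alone or the length offset, and 1 to 2 when a library was left out. The count whose label effect differed between myoblasts and fused myotubes was 1, and 2 with the length offset, where Trim55 was added.

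Every change of sign was in an uncalled value near 0. Between the labels, Trim55 in myoblasts was 0.0004193 with no filter and -0.05039 to 0.02895 over the leave-one-out fits, above 0 without WT library 2 or KO-labelled libraries 1 or 2. Leaving out libraries gave Fbxo21 in myoblasts -0.05197 to 0.008534, above 0 without WT library 1. Foxo4 in differentiated myotubes was -0.004487 with library size alone, and Fbxo30 there was -0.05475 to 0.008035, above 0 without WT library 1. In fused myotubes Fbxo40 was -0.009973 with the length offset, Foxo3 -0.04947 to 0.006901, above 0 without WT library 4, and Fbxo30 -0.004864 to 0.04985, below 0 without KO-labelled library 3. Foxo1 between WT myoblasts and differentiated myotubes was 0.01461 with DESeq2 size factors, 0.03651 with a mean of at least 1 CPM, 0.01459 with the Wald test, 0.00519 with the compared libraries alone and -0.03359 to 0.009317 over the leave-one-out fits, above 0 without WT differentiated library 3. Of the differences between stages, Trim55 from differentiated to fused was 0.03288 with library size alone and -0.07076 to 0.02587 over the leave-one-out fits, above 0 without KO-labelled differentiated library 2, and Fbxo30 from myoblasts to fused was -0.07907 to 0.01531, above 0 without WT myoblast library 3.

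Over all genes, 1747 were called in myoblasts, 2625 with the compared libraries alone and 589 with the length offset, and 924 without WT library 3, 1144 without KO-labelled library 1 and 1067 without KO-labelled library 3. With the length offset the counts fell from 3811 to 2140 in differentiated myotubes, from 1972 to 819 in fused myotubes, and from 2892 to 1457, 2238 to 978 and 1557 to 663 for the differences between stages. The cause was not tested. Of the calls in myoblasts, those higher under the KO label made up 42.1%, 29.3% with DESeq2 size factors and 19% with the length offset. In differentiated myotubes this share was 43.8%, and 27% with library size alone.

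The list genes were put through the same alternatives after the data had been seen. Of the list genes eligible to be named between the labels, 4 of 15 in myoblasts, 12 of 24 in differentiated and 10 of 23 in fused myotubes lost the call in at least 1, and 3, 8 and 9 of them did so with the length offset. Counts of called genes ran from 2 to 5, 7 to 16 and 4 to 9 at the 3 stages for the FoxO inputs, from 5 to 16, 15 to 25 and 3 to 10 for the other ligases, and from 15 to 17, 10 to 17 and 5 to 15 for the substrates and partners.

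No pairing of the libraries by replicate number was detected. Over 41 pairs with the same number the correlation of deviations from the group means was -0.0536 to 0.0563, so the numbers were taken as names. Between WT myoblasts and WT differentiated myotubes the same-number values were 0.0392, 0.0247 and 0.0361, and those of other numbers were negative. Values this small do not show whether libraries shared an animal or a culture. With the replicate number as a block, 3, 5 and 2 members were called between the labels, as without it, and 1666, 3661 and 1858 genes in all. The genes with under 3 CPM, Trim63 and Fbxo40 in myoblasts, are those where depth limits the precision most.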
